A study of Rattus norvegicus with 20 samples.

Results

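The RNA levels of 9 genes that set or remove chromatin marks were followed in the hypothalamic arcuate nuclei of 20 Sprague-Dawley rats. The rats were female per the labels and were killed on postnatal day 15. The genes included the DNA methyltransferases Dnmt1, Dnmt3a and Dnmt3b and the methylcytosine dioxygenases Tet1, Tet2 and Tet3. The others were the histone deacetylases Hdac1 and Hdac2, and Gadd45b, a stress- and activity-responsive gene linked to active demethylation. The array names 25885 genes, of which these are 9, found by their symbol. They were measured by 15 probes, and 7 of the 9 genes passed the filter on dim probes and were tested among 17065 genes.

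The rats formed 5 conditions of 4 animals each. SNS rats were born to mothers injected with saline 2 times on gestational day 15 and received saline postnatally. In the other conditions (BNS, BYS, BYA and BYP) the mothers were given betamethasone, a synthetic glucocorticoid that crosses the placenta, in 2 injections of 0.4 mg/kg on that day. BNS rats had no spasms and received saline. BYS, BYA and BYP rats had spasms triggered by N-methyl-D-aspartic acid (NMDA) on postnatal days 12, 13 and 15, and were treated with saline, ACTH (adrenocorticotropic hormone) or PMX53 (an antagonist of the complement receptor C5ar1), per the labels on days 13, 14 and 15. No condition combined spasms with prenatal saline. Each litter was reduced to 4 females, and which rats were littermates is not given in the sources used here.

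DNA methylation is laid down on new sites by Dnmt3a and Dnmt3b and copied to the daughter strand after replication by Dnmt1. Dnmt3b is known mainly from the early embryo, and Dnmt3a from postnatal neurons. The Tet enzymes oxidise methylcytosine, after which base excision repair can restore the unmodified base. Hdac1 and Hdac2 remove acetyl groups from histones within the Sin3, NuRD and CoREST complexes. Neither methylation nor acetylation itself was measured here.

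A pair of animals of the same condition shared each of 9 arrays, labelled with Cy3 and Cy5. BYA replicates 3 and 4 each lay on an array with a rat of another series. Each condition was hybridized on its own slide, with BYA replicate 3 on a further one, so slide and condition cannot be told apart. For BYA replicate 3 the dye in the labels does not match the order in which the samples of that array are named. By that order the channel would hold the other rat of the array, named as a male SNS rat. The label was used, and values without BYA replicate 3 are given where leaving it out moved a result. The median ratio of spot signal to local background ranged from 5.66 to 11.3 in SNS and from 13.9 to 19.9 in BNS and BYS, and lay between 6.6 and 10.9 in BYA and BYP. Levels are log2 intensities after background correction and quantile normalization, and a probe's level cannot be set against that of another probe. A gene was called at an adjusted p under 0.05 by limma over all genes. Of the 16 marker genes of arcuate nucleus neurons, 12 were well above background in all 20 samples. So were 2 of the 8 pituitary genes, Lhb and Pitx1, and 3 of the 4 genes of the ventromedial hypothalamus. The other pituitary genes were well above background in 0 (the hormone Prl) to 15 samples (Cga).

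The probes on which the results turn are shown by at most 30 of their 60 bases, since they define which transcript each value belongs to. Positions are those in the array files on rat build rn4. Whether a probe lies in coding sequence or in an untranslated region was not read, since no rn4 annotation was used here. Dnmt3b has a probe at chr3:144069022-144069081 (plus strand) that passed the filter, and another at chr3:144060143-144060202 that did not. Gadd45b is read by 1 probe, placed at chr7:10289049-10289076 (minus strand), and Dnmt3a by 1 probe at chr6:26878369-26878428 (plus strand).
Dnmt3b, first 30 bases of the tested probe: accttttgctctgattacaggtgctatttt
Dnmt3b, first 30 bases of the untested probe: tgttcgagaatgttgtggccatgaaagtga
Gadd45b, first 30 bases: aaccagtgggtcccctatatctctctggag

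The 2 probes of Tet2 overlap by 29 bases, at chr2:231016042-231016101 and chr2:231016073-231016132 on the minus strand, so they are no independent readings. The shared bases are in capitals.
Tet2 probe A_43_P22048, first 30 bases: AGGTCACAGGGCCTTACAACACATATGTAt
Tet2 probe A_64_P120280, last 30 bases: cAGGTCACAGGGCCTTACAACACATATGTA

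The probes of Tet3 at chr4:117621991-117622050 (A_42_P665009) and chr4:117581086-117581145 (A_64_P086600) share no such stretch, and neither do the 3 probes of Hdac1. They are shown because the probes of each gene gave different results below. The Hdac1 probe A_64_P122452 is also assigned in the files to a transcript of Hdac1l, a near copy of the gene, so part of its signal may belong to that copy.
Tet3 probe A_42_P665009, first 30 bases: ttcagcaacaccttcatcacaagcgcaacc
Tet3 probe A_64_P086600, first 30 bases: tcatttaaagtgccagggtcaggcgttttc
Hdac1 probe A_64_P055758, first 30 bases: ggaggatgttagcctagcttcctttttgag
Hdac1 probe A_64_P118296, first 30 bases: taaaatatattaaatataacgtccccaggg
Hdac1 probe A_64_P122452, first 30 bases: gaggtcgcaagaactcttctaacttcaaaa

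Dnmt3b, read by 1 dim probe, had higher levels in all 4 conditions with prenatal betamethasone than in SNS. The probe entered the test only through BNS and BYS, in whose 4 samples each it was well above background and where its mean was also highest. Its log2 levels were 7.46, 7.71, 7.41 and 7.60 in SNS replicates 1 to 4. In BNS they were 8.01, 8.03, 7.98 and 8.05, and in BYS 7.95, 8.10, 7.92 and 8.06. The 16 values of the betamethasone conditions all lay above the 4 SNS values, in both dyes, as did 6.58% of all genes. In BYA the levels were 8.11, 8.03, 7.79 and 7.78, and in BYP 7.82, 7.83, 7.92 and 8.02. The mean of the 4 conditions exceeded SNS by 0.41 ± 0.0853 (SE) on the log2 scale, a 1.33-fold difference (adjusted p = 0.00188). In this comparison 13.9% of all genes were called higher and 17.1% lower. Dnmt3b was the 1 call among 7 members, and nothing is read from that count because of the filter.

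Dnmt3b rose by 0.47 ± 0.108 (SE) in BNS (adjusted p = 0.00686) and by 0.46 in BYS (0.00793). It rose by 0.36 in BYA (0.0204; 0.39 and 0.0201 without replicate 3) and by 0.35 in BYP (0.0334). These 4 comparisons share the SNS samples. The probe passed the filter only through BNS and BYS, where it was highest. The p-values of BNS, BYS and the mean of the 4 conditions are therefore not independent of the filter. The calls in BYA and BYP were lost in 6 and 5 of the 14 alternatives in which the gene was tested. That in BYP was also lost on leaving out SNS replicate 1 or 3, BYS replicate 3, or BYP replicate 1, 3 or 4 (adjusted p from 0.0537 to 0.061). The shares of all genes called higher were 9.13% for BNS, 8.53% for BYS, 10.9% for BYA and 9.51% for BYP. The differences of Dnmt3b among the 4 betamethasone conditions did not pass the test.

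The signal of this Dnmt3b probe was low. It was well above background in 1 of the SNS samples, in all 4 of BNS and of BYS, and in 2 each of BYA and BYP, and in 4 of the 10 Cy3 and 9 of the 10 Cy5 samples. The untested Dnmt3b probe ranged from 6.90 to 7.61 and was well above background in 0 of 20 samples, so 1 probe carries the result. The median level of the 4762 probes that were never well above background was 7.341. The arrays of BNS and BYS were also the brightest over background, whereas BYA and BYP were close to SNS in this measure. The part of signal over background in the difference was not tested. With only probes well above background in all samples, Dnmt3b dropped out of the test. Over the other 11 alternatives the difference ranged from 0.25 to 1.09 (adjusted p from 3.74e-06, with the slide as the block, to 0.2). Its call was lost under 1 of them, a scaling by medians instead of quantiles (0.51, adjusted p = 0.2). SNS and the other conditions overlapped under that scaling, with either use of the processed signals and without the filter on dim probes. Without the filter, which averages in the Dnmt3b probe that was never well above background, the difference was 0.25 (adjusted p = 0.026) and the calls in BYS, BYA and BYP were lost (adjusted p = 0.082, 0.0577 and 0.322). Median scaling also moved the share of higher genes among all calls from 44.8% to 75.1%.

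**Figure D1:**
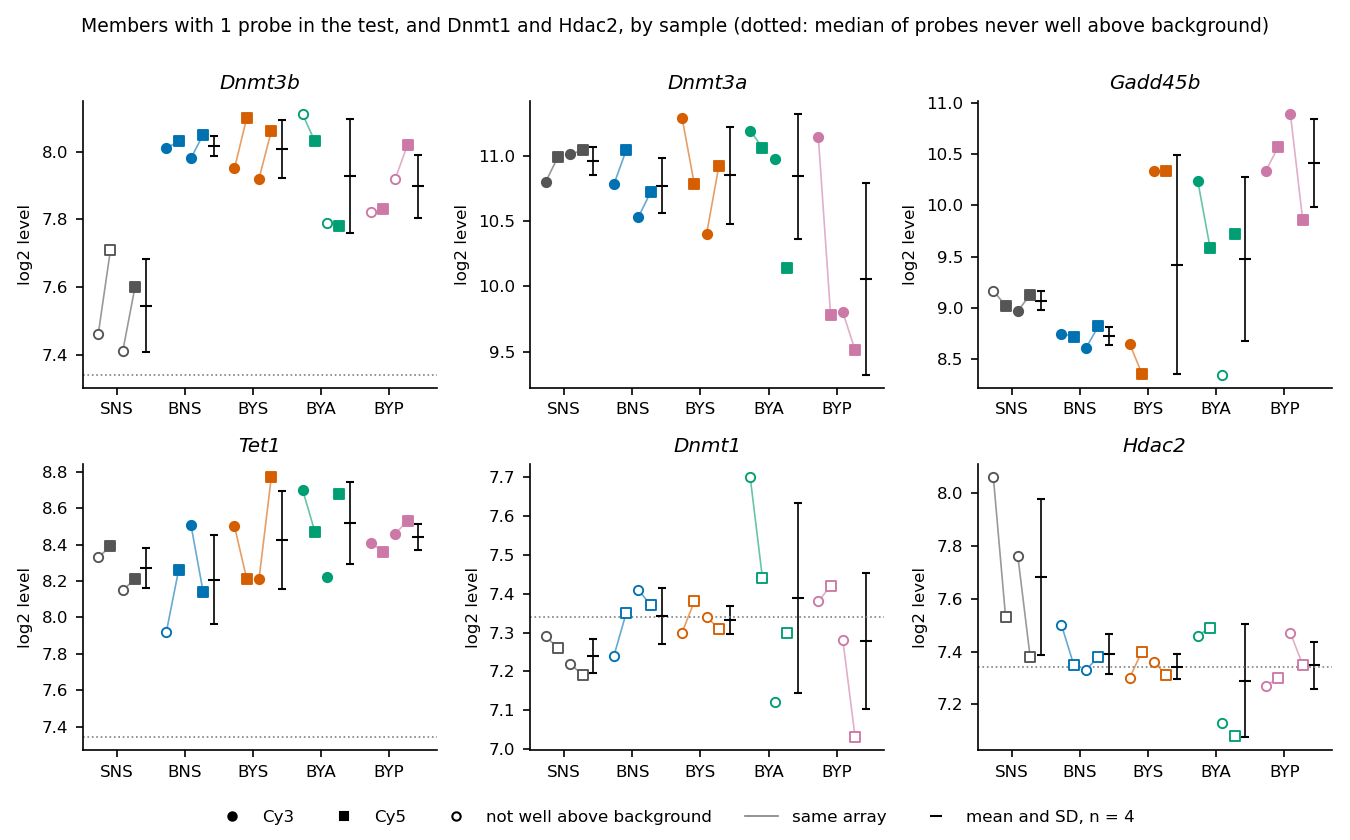
Log2 levels of 6 members in each of the 20 samples, by condition, with the mean and SD (n = 4) at the right of each group. Circles are Cy3 and squares Cy5, lines join samples of 1 array, and open symbols mark samples in which the probe was not well above background. For Dnmt3b all SNS symbols lie at or below 7.71 and all others at or above 7.78, whereas Dnmt1 and Hdac2 lie around the dotted line at 7.341 in most samples.

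Dnmt1 and Hdac2 could not be compared. The single probe of each was well above background in 0 of 20 samples. Dnmt1 ranged from 7.03 to 7.70 over all samples. Hdac2 ranged from 7.38 to 8.06 in SNS and from 7.08 to 7.50 in the other 16 samples. No fold is given for either, and their absence from the test says nothing of the level of these RNAs in the tissue.

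Dnmt3a lay below every SNS value in 3 of 4 BYP rats, but BYP and SNS overlapped. The BYP levels were 11.14, 9.78, 9.80 and 9.51, and replicate 1, which shared an array with replicate 2, stood above the other 3. SNS levels were 10.80, 10.99, 11.01 and 11.04. BNS ranged from 10.53 to 11.04, BYS from 10.40 to 11.29 and BYA from 10.14 to 11.19, all overlapping with SNS. The mean of BYP minus SNS was −0.91 ± 0.349 (SE), and the difference was not called (adjusted p = 0.079). Without replicate 1 the difference was −1.25 and was called (adjusted p = 0.00515). With replicate 1 kept, it was called with the array left out of the model (adjusted p = 0.0199) and with the slide in its place (0.00153). Leaving out the array treats samples of 1 array as independent, although their correlation was 0.367. The slide nearly coincides with the condition, and its correlation was −0.13. Both fits therefore tend to give p-values that are too low. The difference was also called after loess normalization of the 9 shared arrays (0.0427), and the adjusted p reached 0.217 in the other alternatives. The mean of the 4 betamethasone conditions minus SNS was −0.34 (95% interval −0.92 to 0.23, adjusted p = 0.344).

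Gadd45b was higher in BYP than in SNS and split within the other conditions with spasms. Its SNS levels were 9.17, 9.02, 8.97 and 9.13. In BYP they were 10.34, 10.57, 10.89 and 9.86, all above every SNS and BNS value. The difference of 1.34 ± 0.455 (SE), or 2.53-fold, was called (adjusted p = 0.0489), beside 9.51% of genes called higher and 11.9% wholly above SNS. The call lay at the threshold: leaving out 1 sample at a time gave adjusted p from 0.0236 to 0.104 and removed it in 15 of 20 cases, with differences between 1.14 and 1.56. It was kept without BYS replicate 2 or 4, BYA replicate 1 or 3, or BYP replicate 4. The call was also lost in 6 of the 14 other alternatives in which the gene was tested. Over these the difference ranged from 1.09 to 2.37 (adjusted p from 0.00182, with the slide as the block, to 0.184).

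In BNS, Gadd45b was at 8.75, 8.72, 8.61 and 8.82. These values all lay below SNS, as did those of 20.8% of all genes, and the difference of −0.35 was not called (adjusted p = 0.614). In BYS, replicates 1 and 2 were at 8.65 and 8.36 and replicates 3 and 4 both at 10.34. Each of these pairs shared an array, so the split follows the arrays. In BYA, replicates 1, 2 and 4 were at 10.24, 9.59 and 9.72 and replicate 3, the sample whose channel is uncertain, at 8.35, where the probe was not well above background. Without that sample BYA minus SNS moved from 0.33 to 0.80 (adjusted p = 0.162), still short of the threshold. BYP exceeded BNS by 1.69, with no overlap (6.34% of genes), and this was not called (adjusted p = 0.184).

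Egr4, a transcription factor of the immediate early class, divided the samples at the same places. Its levels were 8.64, 8.85, 10.81 and 10.72 in BYS replicates 1 to 4, and 10.47, 10.28, 8.98 and 11.11 in BYA. In BYP it ranged from 10.24 to 10.73, and in SNS from 8.39 to 8.92. Not every immediate early gene followed this course. Fosb ran from 9.18 to 9.41 in BYP against 9.24 to 9.75 in SNS, and Btg2 from 10.11 to 10.39 against 10.16 to 10.51. In BYP minus SNS, 4 of the 13 tested immediate early genes were called higher and 0 lower, beside 9.51% and 7.99% of all genes, with a list median of 0.73. In BYA minus SNS 4 were called higher as well, beside 10.9% of all genes, and 8 without BYA replicate 3. In BNS minus SNS the list had 0 calls by limma, 1 gene at an unadjusted p under 0.05 and a median of −0.06. The part of these genes in the Gadd45b levels was not tested.

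**Figure D2:**
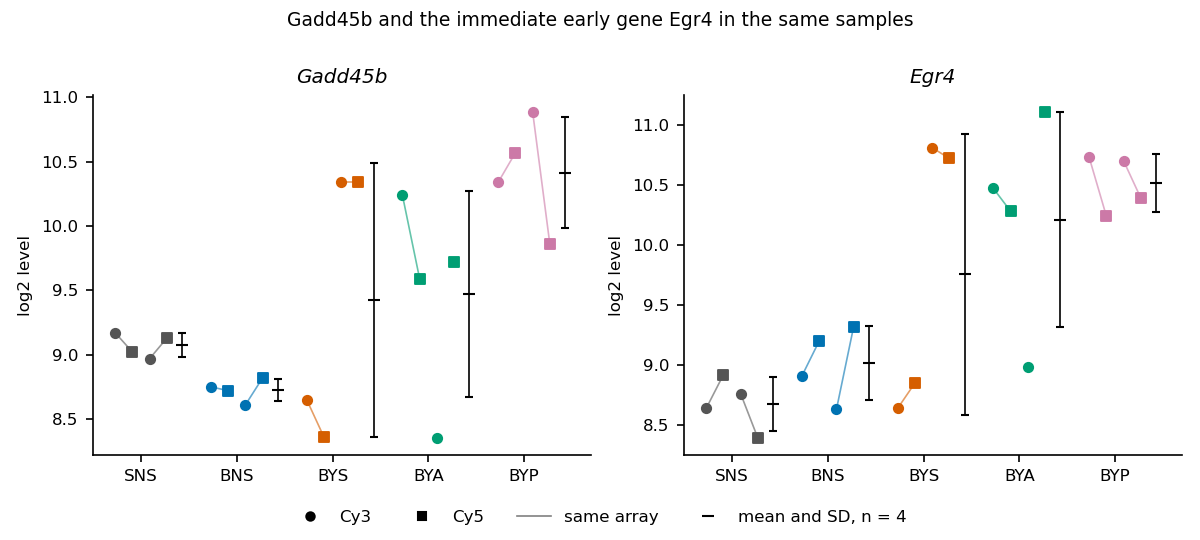
Log2 levels of Gadd45b and of the immediate early gene Egr4 in each of the 20 samples, by condition, with the mean and SD (n = 4). Symbols stand for the dyes and lines join samples of 1 array. Both genes were low in BYS replicates 1 and 2 and in BYA replicate 3, and high in BYS replicates 3 and 4 and in all 4 BYP samples.

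The Tet genes showed no call in any comparison with SNS when their probes were averaged. For Tet1, the SNS levels ran from 8.15 to 8.39 and those of the other conditions from 7.92 to 8.77, a difference of 0.12 (95% interval −0.18 to 0.43). Its sign turned to −0.38 when the software's processed signals were used. For Tet2 the difference was −0.14 (−0.35 to 0.08) and for Tet3 0.01 (−0.24 to 0.26). In BNS, Tet3 (9.02 to 9.10) lay wholly below SNS (9.16 to 9.34), and in BYA, Tet2 (8.40 to 8.84) wholly below SNS (8.85 to 9.09), beside 20.8% and 16.3% of all genes, and neither was called (adjusted p = 0.388 and 0.138).

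Averaging hid differences between probes. The Tet3 probe A_64_P086600 was at 8.26, 8.05, 7.99 and 8.11 in SNS and at 7.62, 7.70, 7.71 and 7.66 in BNS, with no overlap. BYS (7.69 to 7.95) lay wholly below SNS too. Of all genes, 20.8% lay wholly below SNS in BNS and 16.9% in BYS. Fitted alone among all probes, this probe fell by 0.43 in BNS (adjusted p = 0.0142, with 7.77% of probes called lower). In the mean of the 4 conditions it fell by 0.24 (adjusted p = 0.0465, with 17.1% called lower). The latter call was lost without BYA replicate 3 (−0.23, adjusted p = 0.0519). The probe passed the filter only through BYS. It was well above background in 12 of the 20 samples, which were all 10 of the Cy5 samples and 2 of the 10 Cy3 samples. The other Tet3 probe, A_42_P665009, was well above background in all samples and lay at 10.28 to 10.49 in SNS, 10.32 to 10.55 in BNS and 10.65 to 11.13 in BYS. Its difference of 0.53 in BYS minus SNS was not called (adjusted p = 0.117). In BYA minus SNS it differed by 0.41 (adjusted p = 0.175), and without BYA replicate 3 by 0.63, which was called (0.0396). With all samples, 11.3% of probes were called higher in BYA minus SNS. A further Tet3 probe was well above background in 2 samples and was not tested. The Tet2 probe A_43_P22048 was at 7.72, not well above background, in BYA replicate 1 against 8.87 to 9.12 in SNS, whereas the overlapping probe A_64_P120280 was at 9.07 in that sample. The BYA minus SNS difference of A_43_P22048, −0.53, was not called (adjusted p = 0.051). Without BYA replicate 3, and with the 7.72 of replicate 1 kept, it was −0.65 and called (0.024). With all samples, 11.1% of probes were called lower in BYA minus SNS. BNS (8.57 to 8.74) and BYS (8.67 to 8.85) lay wholly below SNS for this probe too, beside 20.8% and 16.9% of all genes. Neither difference was called (adjusted p = 0.229 and 0.469).

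Hdac1 was not called when its 3 probes were averaged, with a difference of 0.08 (95% interval −0.15 to 0.31) between the mean of the betamethasone conditions and SNS. SNS replicates 1 and 2, on 1 array, were at 10.89 and 10.90, and replicates 3 and 4, on the other, at 10.39 and 10.44. The brightest probe, A_64_P055758, differed from the others. It was at 11.96, 11.94, 11.72 and 12.00 in SNS and at 12.31, 12.38, 12.22 and 12.55 in BYA, with no overlap. BNS (12.14 to 12.35) lay wholly above SNS too. Of all genes, 12.5% lay wholly above SNS in BYA and 14% in BNS. Fitted alone, this probe rose by 0.46 in BYA (adjusted p = 0.0278, with 11.3% of probes called higher). Its rise of 0.33 in BNS was not called (adjusted p = 0.127). In the mean of the 4 conditions it rose by 0.32 (adjusted p = 0.0459, with 14.3% called higher). The probes A_64_P118296 and A_64_P122452 gave −0.12 (adjusted p = 0.405) and 0.04 (0.881) in the latter comparison.

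**Figure D3:**
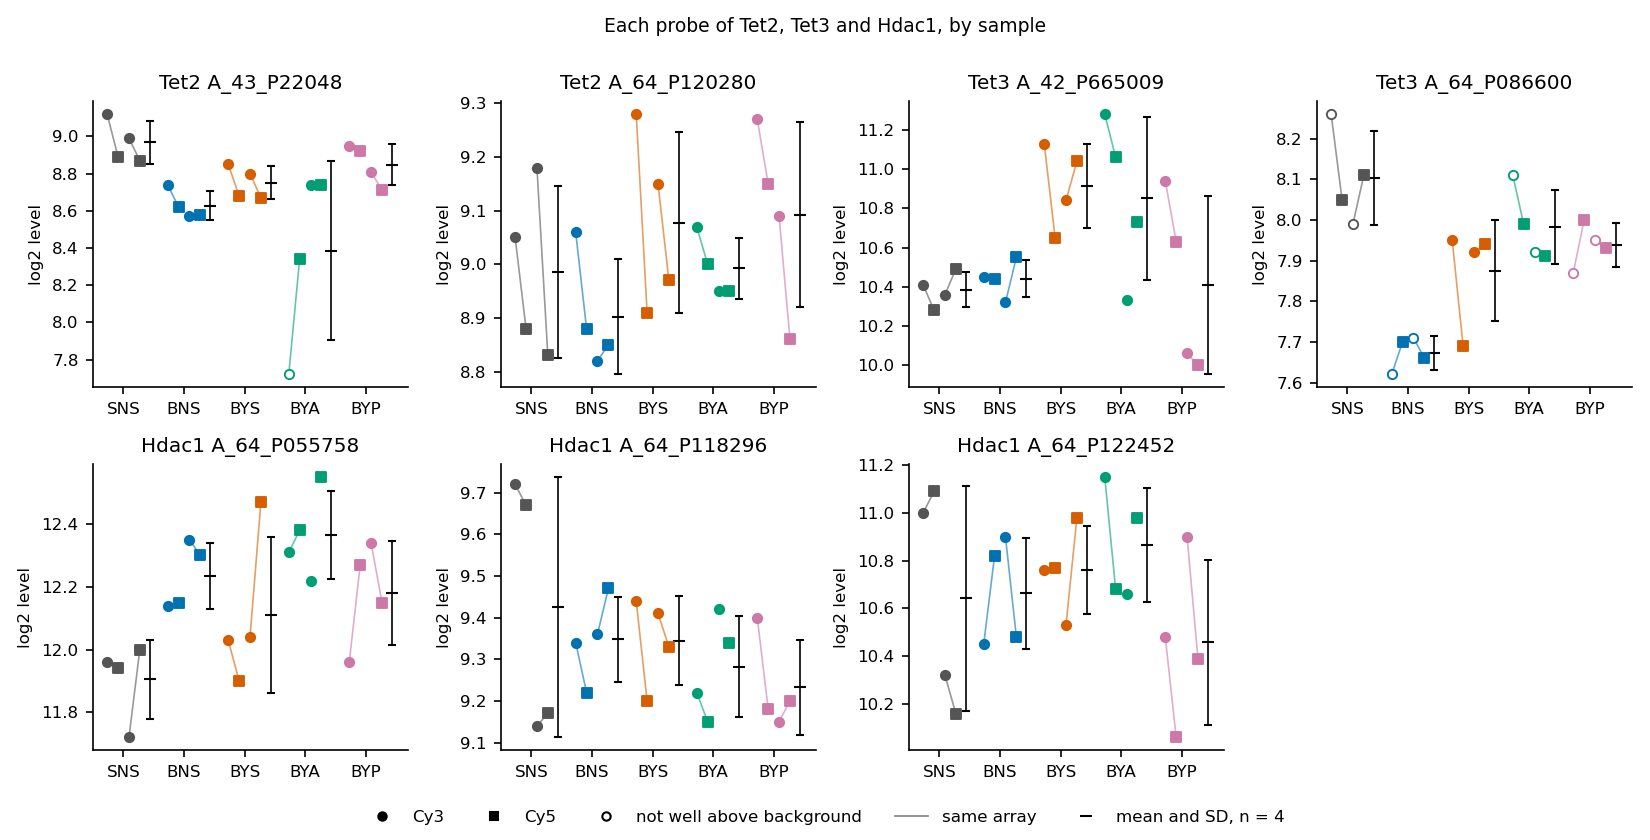
Log2 levels of each tested probe of Tet2, Tet3 and Hdac1 in each of the 20 samples, by condition, with the mean and SD (n = 4). Circles are Cy3 and squares Cy5, lines join samples of 1 array, and open symbols were not well above background. The Tet3 probe A_64_P086600 was lowest in BNS. All BNS and BYA values of the Hdac1 probe A_64_P055758 lay above SNS, whereas for the other Hdac1 probes both conditions overlapped with SNS.

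Among the 4 betamethasone conditions, the 6 comparisons ask what the spasms and the 2 treatments changed. No member was called in them by limma, where 0.0156% of all values were called. At an unadjusted p under 0.05 there were 7 of 42 member values, against 6.2% of the values of all genes. These were Dnmt3a, lower in BYP than in BYS and in BYA, Gadd45b, higher in BYP than in BNS, BYS and BYA, and Tet3, higher in BYS and in BYA than in BNS. Without BYA replicate 3 there were 9 such values and 0 calls, and 5 of the 7 remained. Gadd45b in BYP minus BYA fell out, moving from 1.01 to 0.54 (adjusted p = 0.739), as did Dnmt3a in that comparison, moving from −0.74 to −0.71 (0.576). Tet3 in BYA minus BNS moved from 0.33 to 0.45 (0.299), and Gadd45b (1.15) and Tet1 (0.41) in BYA minus BNS, and Tet2 (0.29) and Tet3 (−0.33) in BYP minus BYA, were added.

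**Figure D4:**
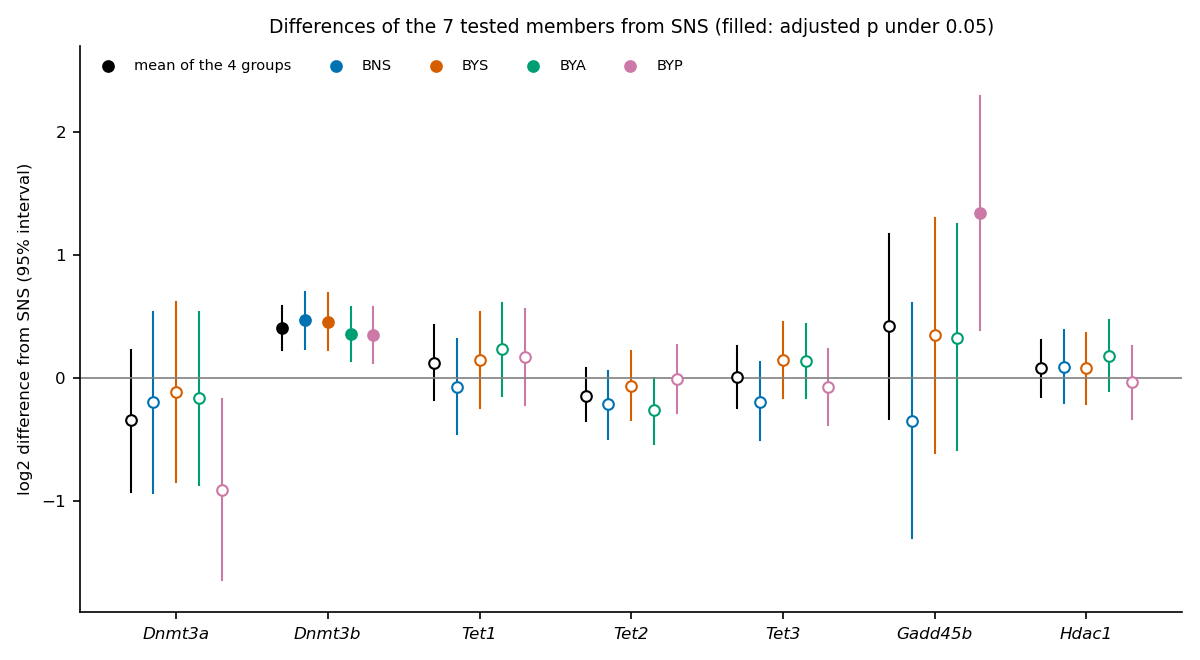
Log2 differences from SNS of the 7 tested members, for the mean of the 4 betamethasone conditions and for each condition, with 95% intervals. Filled symbols passed the adjusted threshold, and the conditions share the 4 SNS samples. The 5 Dnmt3b intervals lie above 0 and are narrower than those of Dnmt3a and Gadd45b, whose BYP values of −0.91 and 1.34 lie apart from those of the other conditions.

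Genes that act with the members were taken from 6 lists, and most of their tested members were not called between the mean of the betamethasone conditions and SNS. Of 12 tested genes of demethylation and base excision repair, 4 were called higher and 1 lower, with a list median of 0.17. Apex1, the endonuclease that cuts abasic sites, rose by 1.15 (adjusted p = 2.15e-06). The uracil-DNA glycosylase Smug1 fell by 0.50 (adjusted p = 0.000327), and Ogt, which attaches N-acetylglucosamine to proteins, rose by 0.48 (adjusted p = 0.00894). Of 11 tested partners and readers of DNA methylation, 1 was called, Mbd6, which rose by 0.41 (adjusted p = 0.0173). The median of that list was −0.13, and Dnmt3l, the partner of the Dnmt3 enzymes in germ cells, was well above background in 0 samples. Of 12 tested genes of the methyl donor cycle, 3 were called higher and 1 lower, with a median of 0.04, led by the spermidine synthase Srm (0.50, adjusted p = 0.0164), Mat2a, which makes S-adenosylmethionine (0.38, 0.0377), and Mtrr, which keeps methionine synthase active (0.36, 0.00569).

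Of the 15 tested deacetylases and sirtuins other than Hdac1 and Hdac2, 4 were called higher and 0 lower, with a median of 0.04. Hdac3, the catalytic subunit of the NCoR complexes, rose by 0.57 (adjusted p = 0.000546). All 16 of its values lay above SNS, as did those of 6.58% of all genes. The mitochondrial deacetylase Sirt3 rose by 0.53 (adjusted p = 0.00207) and Sirt2, a mainly cytoplasmic deacetylase abundant in myelinating cells, by 0.50 (adjusted p = 0.0412). All 22 subunits of the Hdac1 and Hdac2 complexes were tested. Of these, 3 were called higher, among them the NuRD subunit Gatad2a (0.92, adjusted p = 9.82e-05) and the histone-binding Rbbp7 (0.44, 0.0288), and 2 lower, with a median of −0.03. Of 11 tested acetyltransferases, Hat1, which acetylates new histone H4, was called higher (0.92, adjusted p = 1.12e-05), while Kat6a (−0.51, adjusted p = 0.0207) and Kat8 (−0.37, 0.00293) were called lower. The median of that list was −0.18, and the median of all genes tested −0.08. The 6 lists thus held calls in both directions, at shares to be read beside the 13.9% and 17.1% of all genes.

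**Figure D5:**
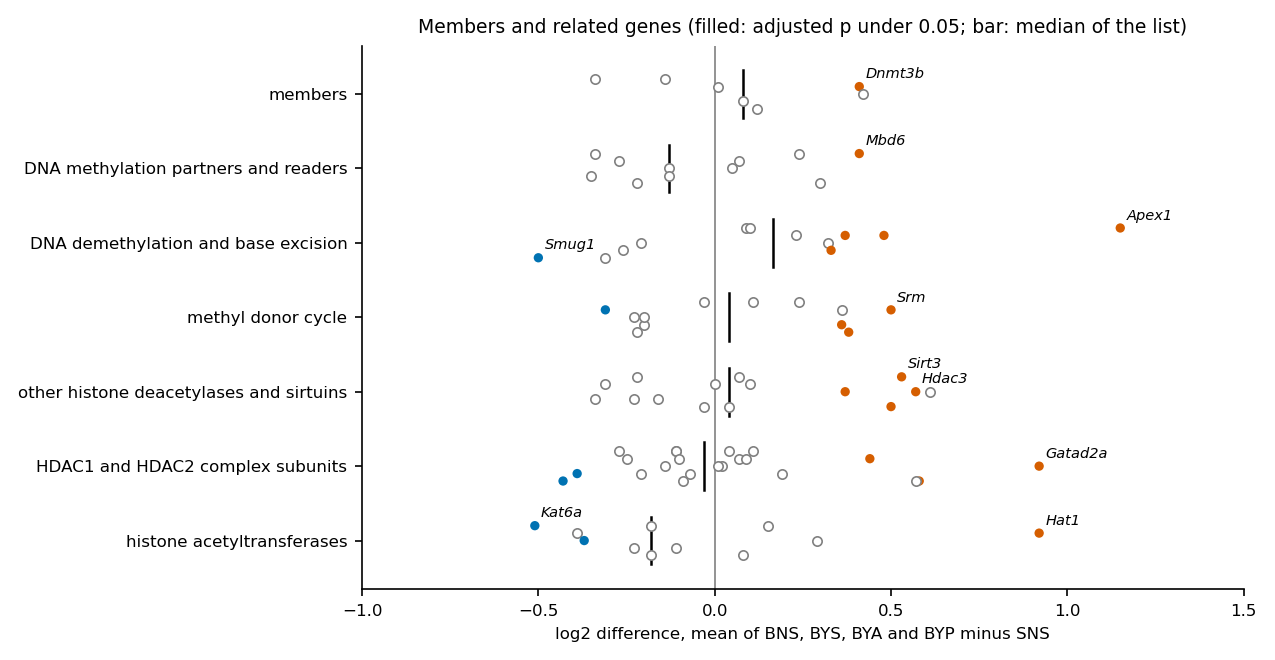
Log2 differences between the mean of the 4 betamethasone conditions and SNS for the tested members and for 6 lists of related genes, 1 point per gene. Filled points passed the adjusted threshold (orange higher, blue lower), and the bar is the median of the list. Apex1 (1.15), Gatad2a (0.92) and Hat1 (0.92) lie farthest to the right, and the medians lie between −0.18 and 0.17.

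Some markers of cell types were called between SNS and the other conditions, beside 13.9% of all genes called higher and 17.1% lower, and their part in the results above was not tested. In a dissected nucleus, fewer cells of a type and less RNA per cell cannot be told apart. Of the 8 microglial markers, 2 were called lower, Cx3cr1 (−0.74) and P2ry12 (−0.66), and the summed intensity of the list ran from 26700 to 32600 in SNS and from 20800 to 37700 in the other conditions. Of 10 oligodendrocyte markers, 1 was called, Olig2 (1.04), and the sum ran from 23200 to 46100 in SNS and from 26200 to 47800 elsewhere. Of 15 tested markers of arcuate neurons and 8 of astrocytes, 0 were called by limma, with 2 and 3 genes at an unadjusted p under 0.05. Of 6 tested vessel markers, 2 were called lower, Pdgfrb (−0.50) and Cldn5 (−0.45), and of 5 tested markers of choroid plexus and red blood cells, 2 were called higher, Alas2 (0.81) and Hba-a1 (0.38).

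The genes whose levels ran most nearly in parallel with a member were found by Pearson's r over all 20 samples after the dye effect was removed, with samples of 1 array not independent. For Dnmt3b they included C8h15orf61 (0.946) and Slc39a13 (0.934). For Gadd45b they were Nab2 (0.939), a corepressor of the Egr factors, Icam1 (0.933), an adhesion molecule, and Ccl4 (0.919), a chemokine. For Tet2 they were Pygo2 (0.914), Kctd10 (0.904) and Zeb1 (0.881), and for Tet3 Il1rap (0.864), Apba2 (0.85) and Ctnnd1 (0.812). For Tet1 they included Stau1 (0.899) and Rhoj (0.881), for Hdac1 Ulk4 (0.886) and Qrich1 (0.883), and for Dnmt3a Fcho1 (0.848).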

How the data were processed

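Each nucleus gave total RNA for 1 channel, Cy3 or Cy5, of 11 Agilent rat arrays. The authors deposited 1 file per array as written by Agilent Feature Extraction (11.5.1.1 per the file headers, 10.7.3.1 in the submitters' processing notes). Per the file headers, the spot signals and local backgrounds used here are intensity values without background subtraction or normalization, and the processed signals, an alternative, are intensity values that the software background-subtracted and dye-normalized. The flag columns for spots well above background, outliers and saturation hold 0 or 1 as deposited (unit: other). The 82 columns that belong to rats of another series were not used.

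Backgrounds were corrected per channel with normexp (offset 50), outlier spots (1.18%) were left out, and quantile normalization put the 20 channels on 1 log2 scale. The filter on dim probes asked, for all 4 samples of some condition, that a share of 0.5 or more of the spots be well above background, and 19883 of 30367 probes passed. Probes of a gene were averaged. Gene names came from the accessions of 18643 probes and the symbols of 3796 through RefSeq, and otherwise from the files. All samples entered 1 limma fit with the dye as a covariate and the array as a random block (correlation 0.367), with Benjamini-Hochberg adjustment over all genes. The fit ran in limma 3.58.1 under R 4.3.3 (helped by statmod, version 1.5.0, and version 1.17.8 of data.table) and was tested on simulated data. The number of arrays limits the precision. The p-values rest on the spread between samples of a condition, in which rat and array are mixed. Differences between slides, which nearly coincide with the conditions, are mostly not in that spread.

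All members were reported. From each other list, up to 3 called genes with the largest difference between the mean of the betamethasone conditions and SNS were named, and for likeness the 3 genes with the highest r (those without a symbol were left out). Some genes and a probe sequence that these rules name are not reported here. Prl, Cga, Lhb, Dnmt3l, Fosb and Btg2 lie outside these rules and were named after their values were seen. The members and lists were chosen with earlier results of these data known. Fitting each probe on its own, and the probe fits and list counts without BYA replicate 3, were chosen after seeing the data. Alternatives covered the block, dye, normalization, background, filter, probe choice, the t-test of the methods and each sample left out.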

Additional observations from a re-analysis of the deposited data

Results flagged for a closer look

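The Tet3 probe A_64_P086600 in BYS replicate 2 stood apart from the other 3 BYS samples. Its level was 7.69, against 7.92 to 7.95, and the gap took up 0.889 of the range of the group, above Dixon's limit for a group of 4 samples at the 95% level. It was the only such case among 70 groups of member and probe values, where chance alone gives about 1 in 20.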

How the results depend on the processing

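In the comparison of the mean of the betamethasone conditions with SNS, 1 member was called in 8 of 12 alternatives and 1 each time a sample was left out (range 1 to 1). That member was Dnmt3b, whose probe passed the filter only through BNS and BYS. The filter was not redone when a sample was left out or the normalization was changed, so these repeats are not independent of it. The count was 0 with median scaling and with only probes well above background in all samples, where the Dnmt3b probe drops out. It was 2 without a filter (Hdac2, never above background, joined) and with the brightest probe of each gene (Hdac1 joined). The number of genes called was 5298, and 10405 with the slide as the random block, 361 with median scaling, 2396 with processed signals and 2159 with these at the 75th percentile. The cause of these shifts was not tested. The slide nearly coincides with the condition, and the correlation fitted within slides was −0.13, against 0.367 within arrays. A negative correlation in such a block narrows the SE of differences between conditions. The p-values and calls of the slide fit, here and above, are therefore not a check on the others. For BNS the member count of 1 became 2 with the slide block and 0 with median scaling or the strict filter, and 4 by the t-test of the methods (2 after adjustment). For BYS it became 0 with median scaling, no filter or the strict filter. For BYA it became 2 with no array block, the slide block or the brightest probe, and 0 with median scaling, either use of processed signals, no filter, the strict filter, only the 2 groups in the fit, or the adjusted t-test. For BYP the count of 2 became 1 with the replicate block, with either use of processed signals, without background correction and with only the 2 groups, and 0 with median scaling, no filter, the strict filter and the adjusted t-test, and leaving out a sample gave 0 to 2. Among the betamethasone conditions the count of 0 became 1 without the array block, 6 with the slide block and 3 by the unadjusted t-test. Dnmt3b minus SNS in BYP lost its call on leaving out SNS replicate 1 or 3, BYS replicate 3, or BYP replicate 1, 3 or 4 (adjusted p from 0.0224 to 0.061 over the samples left out).

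Signs turned only for members that were not called: Tet1 to −0.38 and −0.28 with processed signals (quantile and 75th percentile), Tet2 to 0.03 with the strict filter, the brightest probe or the probe A_64_P120280 alone, and Hdac1 to −0.04 with median scaling, 0.00 with processed signals and −0.12 with the probe A_64_P118296 alone. Tet3, at 0.01, went to −0.04 with median scaling, −0.11 and −0.19 with processed signals, −0.08 without background correction, −0.24 with the probe A_64_P086600 alone, and between −0.03 and 0.04 on leaving out samples (−0.02, −0.03, −0.01 and 0.00 among them). The median of all genes moved from −0.08 to −0.15 under median scaling. Replicate numbers did not pair the samples, with a mean correlation of 0.00299 (from −0.239 to 0.28) between same-numbered samples, against −0.00072 for others. With the replicate block, Gadd45b in BYP minus SNS lost its call (adjusted p = 0.0558), and no other member call changed. The signal over background limits what can be said of Dnmt1, Dnmt3b and Hdac2.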

Other observations

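Among the genes that respond to glucocorticoids, 2 of 12 tested were called higher and 1 lower between the mean of the betamethasone conditions and SNS, beside 13.9% and 17.1% of all genes. Klf9, a direct target of the receptor, rose by 0.83 (limma, adjusted p = 0.00201) and the receptor gene Nr3c1 by 0.23 (0.0459), while the clock gene Per1 fell by 0.44 (0.0175). In BYP minus SNS, 4 of the 12 were called higher and 0 lower, beside 9.51% and 7.99% of all genes.

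Of 13 tested genes of dividing cells, 0 were called higher and 3 lower in the mean of the betamethasone conditions, beside 13.9% and 17.1% of all genes. The cyclin Ccna2 fell by 0.57 (adjusted p = 0.0375). The replication helicase subunits Mcm6 and Mcm5 fell by 0.46 (0.0026) and 0.36 (0.00166). The summed intensity of the list ran from 4930 to 11300 in SNS and from 6910 to 9280 in the other conditions.

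The pituitary list had 3 of 8 genes tested, of which Pitx1 was called lower (−0.40, adjusted p = 0.0202). Of 7 tested tanycyte and ependymal markers and 4 of the ventromedial hypothalamus, 0 were called by limma, with 1 and 0 genes at an unadjusted p under 0.05.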
